A study of Mus musculus with 6 samples.

Results

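The 9 genes described here encode the receptors, ligands and first signalling steps of the leukaemia inhibitory factor (LIF) and oncostatin M (OSM) branch of the interleukin-6 (IL-6) cytokine family. They were listed by name as rows of the count file, 9 of its 54418 gene identifiers. They comprise 4 receptor chains (Lifr, Il6st, Osmr and Il6ra), 3 ligands (Lif, Osm and Clcf1), the kinase gene Jak1 and the transcription factor gene Stat3. The list was chosen by the difference in Lifr between the genotypes in these same libraries, and the other genes are partners of Lifr in the pathway. The genotype values of Lifr are therefore given as a description and without a test.

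Nearly all cytokines of this family, IL-31 being an exception, signal through the common chain gp130, the product of Il6st. LIF and cardiotrophin-like cytokine factor 1, the product of Clcf1, recruit LIFR to gp130, whereas OSM recruits OSMR and IL-6 first binds IL6RA. Receptor assembly activates the kinase JAK1, which phosphorylates STAT3, and STAT3 in turn induces Socs3, whose product blocks the receptor complex. In the mammary gland the pathway is best known for involution after weaning, when LIF and OSM activate STAT3 in the epithelium.

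The cells came from 4-week-old C57BL/6 females, an age around the start of puberty. Glis2+/+ (WT) mice were compared with Glis2-/- (KO) mice, which carry a germline knockout of the transcription factor gene Glis2 in every tissue, not in the epithelium alone. No treatment was given, there were 3 mice per genotype and 1 library per mouse. Glands of both genotypes were digested overnight at room temperature, stained for TER-119, CD31, CD45, CD24 and CD49f, and the epithelial cells were collected by FACS. The labels do not give the gate, and basal and luminal cells are not separated in these libraries.

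Libraries held between 24996524 and 31393917 estimated counts. Values are given as TMM-normalized CPM, counts relative to the library total, where 1 gene is compared between libraries. TPM values, which also correct for transcript length, are used where genes are compared with each other. Since the short RNA gene Gm23935 took 83.0% to 85.7% of the TPM, TPM values were rescaled to the same total over all other genes and are called scaled TPM. Glis2 itself had 671, 663 and 510 counts in the WT libraries and 252, 509 and 510 in the KO libraries, or 21.5 ± 1.83 against 14.5 ± 3.81 CPM (mean ± SD, n = 3 each; edgeR adjusted p = 0.906), so a transcript was counted from the mutant gene in all 3 KO mice. The libraries held markers of both epithelial layers, and also of stroma (summed marker level 2530 to 8378 CPM) and endothelium (159 to 771 CPM). Both sums were lowest in WT replicate 2 and KO replicate 2, which also had the highest luminal sums. The part of this split in the results was not tested, and values that were highest or lowest in these libraries are pointed out below.

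Lifr lies on the plus strand of chromosome 15 (chr15:7090614-7197489, GRCm38, ENSMUSG00000054263). RefSeq places 2 start sites of Lifr inside this interval, and the 250 bases before each are shown because Lifr is the one gene of the list whose genotypes stood apart. Capitals mark CG dinucleotides. The upstream window (chr15:7129322-7129571, GRCm38.p6, plus strand) is a dense CpG stretch with 43 CG and a GC content of 82.4%, and the downstream window (chr15:7140292-7140541) has 3 CG and a GC content of 50.8%. The median window of the 32851 in the genome had 6 CG and a GC content of 52.4%.
Lifr, upstream start: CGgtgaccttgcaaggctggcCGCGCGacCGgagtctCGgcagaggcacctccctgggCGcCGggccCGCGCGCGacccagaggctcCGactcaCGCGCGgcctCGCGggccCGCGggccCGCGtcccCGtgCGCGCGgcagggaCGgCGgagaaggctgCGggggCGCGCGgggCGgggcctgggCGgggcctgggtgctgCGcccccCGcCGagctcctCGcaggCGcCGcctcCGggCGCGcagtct
Lifr, downstream start: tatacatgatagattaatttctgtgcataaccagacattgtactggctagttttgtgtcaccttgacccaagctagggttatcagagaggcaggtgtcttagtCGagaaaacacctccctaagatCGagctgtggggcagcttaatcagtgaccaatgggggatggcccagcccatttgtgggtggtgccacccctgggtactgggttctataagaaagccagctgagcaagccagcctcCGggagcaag

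The letters TTCNNNGAA, the core recognised by STAT3, occurred in neither Lifr window. Reading both strands, on which this palindromic pattern is the same, it was found in 0 of the 8 windows of the 7 list genes with a RefSeq window, and in 7.02% of all windows. Among 30 windows of the STAT3 target genes considered later, 4 held it, and these belonged to Bcl6, Socs3 and Zfp36. The Socs3 window (chr11:117969367-117969616, GRCm38.p6, minus strand) is shown because Socs3 is the feedback gene of this receptor. Its match, in capitals, begins 154 bases before the start site.
Socs3: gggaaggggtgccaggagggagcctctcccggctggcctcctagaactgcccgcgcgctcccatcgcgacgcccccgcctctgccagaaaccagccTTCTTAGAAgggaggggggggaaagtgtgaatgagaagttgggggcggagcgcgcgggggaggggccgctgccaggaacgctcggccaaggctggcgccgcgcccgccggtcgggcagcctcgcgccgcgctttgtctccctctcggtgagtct

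Among the receptor chains, Lifr was the only one whose WT and KO libraries did not overlap. It measured 286, 289 and 269 CPM in the WT libraries and 408, 479.5 and 442 CPM in the KO libraries. All KO values thus lay above all WT values. The means were 281 ± 10.9 CPM in WT and 443 ± 35.8 CPM in KO (SD, n = 3 each), a log2 fold change of 0.66 (SE 0.09), or 1.58-fold. Depth was not limiting, since 7002 to 14363 counts were assigned to Lifr in a library.

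Il6st, the chain that the LIF, OSM and IL-6 receptors share, measured 277, 237 and 290 CPM in WT and 269, 253 and 329 CPM in KO. The genotypes overlapped, and the log2 fold change was 0.08 (SE 0.13, 95% interval -0.21 to 0.37, edgeR quasi-likelihood test, adjusted p = 0.974). Osmr, the OSM-specific chain, measured 124, 138 and 143 CPM in WT and 114, 145 and 118 CPM in KO. Its log2 fold change was -0.10 (SE 0.12, 95% interval -0.38 to 0.17, adjusted p = 0.966 in the edgeR test). Il6ra, the IL-6 binding chain, was the lowest receptor, with 7.42, 13.0 and 11.1 CPM in WT and 8.27, 18.7 and 9.30 CPM in KO. Its highest library was KO replicate 2, and the log2 fold change of 0.20 (SE 0.35, 95% interval -0.60 to 1.01) became -0.26 without that mouse.

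**Figure D1:**
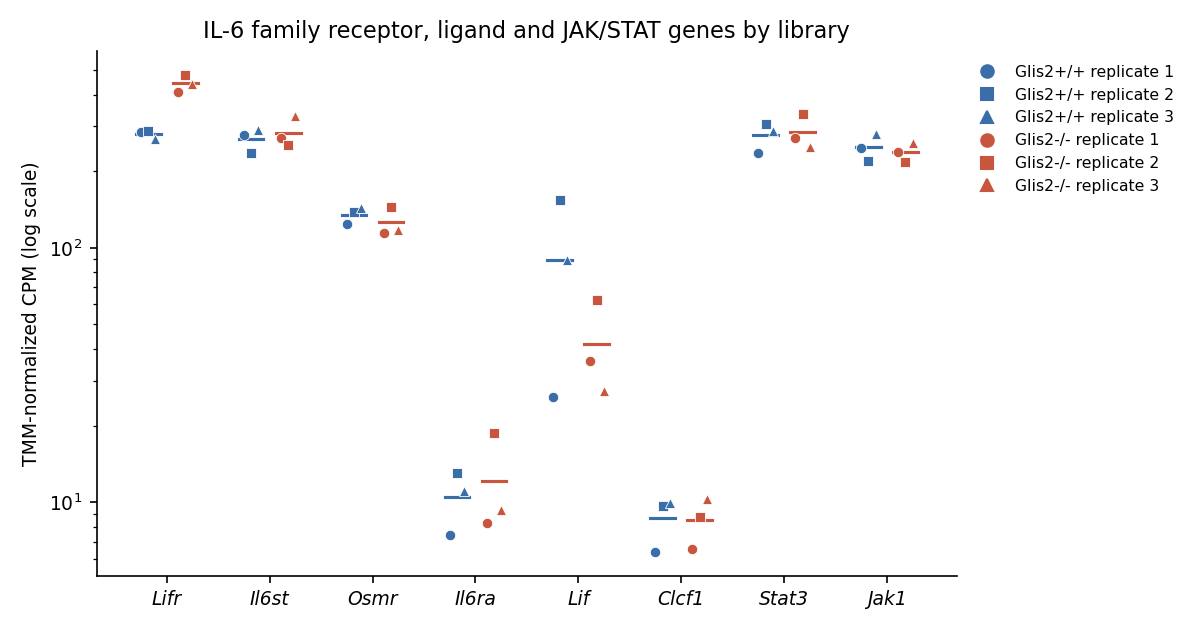
TMM-normalized CPM (log axis) of 8 of the 9 genes in each library, with WT libraries in blue, KO libraries in red, the replicate given by the marker shape and a bar at the mean of 3. Osm, at 0 to 6 counts per library, is not drawn. Lifr separates by genotype, from 269 to 289 CPM in WT and from 408 to 479.5 CPM in KO, and Lif spreads from 25.9 to 154 CPM.

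Of the 21236 genes tested, 0 passed both thresholds of the edgeR test (adjusted p of at most 0.05 and absolute log2 fold change of at least 0.58), a share of 0.0%, and 1130 (5.32%) had an unadjusted p under 0.05. DESeq2 with apeglm called 45 of 23738 genes (0.19%). Non-overlapping genotypes were found for 11.7% of the tested genes, with all KO libraries above in 6.23% and below in 5.5%. Of the 9 listed genes, 8 passed the filter on low counts and 1, Lifr, did not overlap. This count was fixed by the way the list was made. The 7 other tested genes comprised 3 with a higher and 4 with a lower estimate in KO cells.

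The size of the Lifr difference depended on the unit. On the scaled TPM scale Lifr measured 102, 81.8 and 78.9 in the WT libraries and 117, 117 and 108 in the KO libraries. The genotypes still did not overlap, but the gap between the highest WT and the lowest KO library narrowed. As a difference of log2(scaled TPM + 1) it was 0.39 (SE 0.13), against 0.66 on the count scale. Over all genes the median difference on the same scale was -0.05, compared with 0.01 on the count scale, a smaller shift than that of Lifr.

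A count and its TPM together imply a transcript length, which was compared next. Relative to the mean of the 6 libraries, the implied log2 length of Lifr was -0.25, -0.03 and 0.01 in WT and -0.05, 0.14 and 0.18 in KO. The mean was 0.18 higher in KO, with overlapping genotypes, and 81.1% of 11660 genes differed less. For the other tested genes of the list the difference lay between -0.14 (Lif) and 0.21 (Clcf1), and each overlapped. Whether longer Lifr transcripts were present in KO cells was not tested, since transcript-level values were not analysed here.

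**Figure D2:**
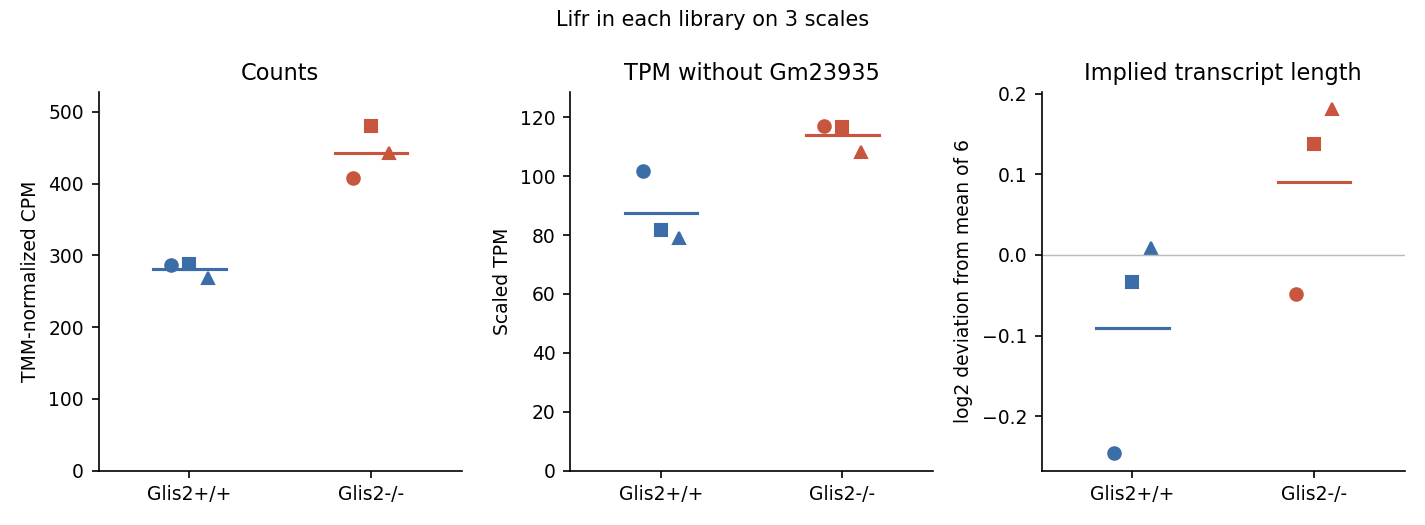
Lifr in each library as TMM-normalized CPM (left), as scaled TPM (centre) and as implied transcript length, in log2 units from the mean of 6 libraries (right). Circles, squares and triangles are replicates 1, 2 and 3 and bars are means of 3. The genotypes do not overlap in CPM or scaled TPM but do in implied length, where WT replicate 1 is lowest at -0.25 and KO replicate 3 highest at 0.18.

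The summed level of basal markers also lay higher in KO. Basal cells form the outer, contractile layer of the duct, and the sum of 10 basal markers was 4683 to 6011 CPM in WT and 6398 to 7696 CPM in KO, without overlap. All 10 markers had a higher estimate in KO, with a median log2 fold change of 0.42, 3 of them (Tagln, Cnn1 and Oxtr) did not overlap and 7 overlapped, against 11.7% of all tested genes without overlap. By edgeR 0 were called and 6 had an unadjusted p under 0.05, against 5.32% of all tested genes. Per 100 CPM of basal markers, Lifr measured 4.76 to 5.74 CPM in WT and 5.74 to 7.49 CPM in KO, with no overlap by a narrow margin. Among the KO libraries the order was not shared, since KO replicate 2 had the highest Lifr value and the lowest basal sum. Among the WT libraries, replicate 3 was lowest in both (269 and 4683 CPM). WT replicates 1 and 2 were close in Lifr (286 and 289 CPM) and in the opposite order in the basal sum (6011 and 5540 CPM). Against Tagln alone, an actin-binding protein of contractile cells, the ratio of Lifr was 1.05 to 1.26 in WT and 1.05 to 1.38 in KO and overlapped. Against Cnn1, another contractile gene, it was 2.12 to 2.20 in WT and 1.79 to 2.90 in KO. The ratios to Krt5, Krt14, Acta2 and Trp63, markers whose own genotypes overlapped, overlapped as well. That to Krt5 was 0.65 to 1.09 in WT and 1.03 to 1.33 in KO. In bulk RNA, a larger number of basal cells and more Lifr RNA per cell cannot be told apart.

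Other cell types did not separate the genotypes in the same way. Summed luminal markers were 4054 to 6624 CPM in WT and 4023 to 7003 CPM in KO, stromal markers 2530 to 8378 and 2852 to 6451 CPM, and endothelial markers 159 to 744 and 247 to 771 CPM. Without both replicates numbered 2, the libraries with the fewest stromal and endothelial transcripts, the log2 fold change of Lifr was 0.61. This comparison was added after the data were seen.

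The gene next to Lifr among receptors is Osmr, on the opposite strand (chr15:6813577-6874969) and 215.6 kb away with no protein-coding gene between them. The neighbouring genes did not share the separation. Rictor, beyond Osmr, had a log2 fold change of -0.13 (SE 0.10), and Egflam, on the other side of Lifr, one of 0.25 (SE 0.32), with overlapping genotypes for both.

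The ratio of the receptor chains differed accordingly. On the scaled TPM scale, Lifr was 1.77, 1.54 and 1.18 times Osmr in the WT libraries and 2.57, 2.08 and 2.08 times Osmr in the KO libraries, without overlap. Lifr over Il6st was 1.07, 1.18 and 0.82 in WT and 1.38, 1.46 and 1.02 in KO, and here the genotypes overlapped. Osmr over Il6st was 0.61 to 0.77 in WT and 0.49 to 0.70 in KO. The ratios with Lifr contain the values that led to the list, and all the ratios here are likewise descriptions.

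Lif had the widest range of the 8 tested genes. It measured 25.9, 154 and 89.4 CPM in the WT libraries and 35.9, 62.3 and 27.3 CPM in the KO libraries, a range of 5.96-fold. The lowest and the highest values were both WT mice, so the KO libraries fell inside the WT range. The means were 89.9 ± 64.3 and 41.8 ± 18.3 CPM, and the log2 fold change of -1.10 (SE 0.56, 95% interval -2.37 to 0.16) did not pass the edgeR test (adjusted p = 0.910). WT replicate 2 carried much of this estimate, which was -0.46 without it. With 800 to 4413 counts for Lif in a library, the spread between mice and not counting error set the interval.

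Lif was set beside genes of luminal progenitor cells as a description. Kit, Elf5, Aldh1a3 and Cd14, which are known from these cells and were picked here after their values were seen, were all above their mean in WT replicate 2 and KO replicate 2 and below it in WT replicate 1 and KO replicate 3. In log2 units from the mean of 6, Lif was -1.03, 1.55 and 0.76 in WT and -0.56, 0.24 and -0.96 in KO. Cd14, the endotoxin co-receptor, is also on the list of STAT3 target genes considered below. It ran -1.05, 1.20 and 0.44 in WT and -0.66, 1.09 and -1.01 in KO. Lif and Cd14 were thus high in the same WT mice, and KO replicate 2 was higher in Cd14 than in Lif. Kit, the stem cell factor receptor, ran -0.80, 0.69 and -0.12 in WT and 0.17, 0.91 and -0.86 in KO. Kit and Elf5 lay on the other side of their mean from Lif in WT replicate 3 and KO replicate 1, and their highest library was KO replicate 2. The ratio of Lif to Kit was 0.21 to 0.46 in WT and 0.15 to 0.24 in KO, and that of Lif to Cd14 2.68 to 3.35 and 1.45 to 2.82. Both ratios overlapped between the genotypes. The part of cell composition in the Lif values was not tested.

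**Figure D3:**
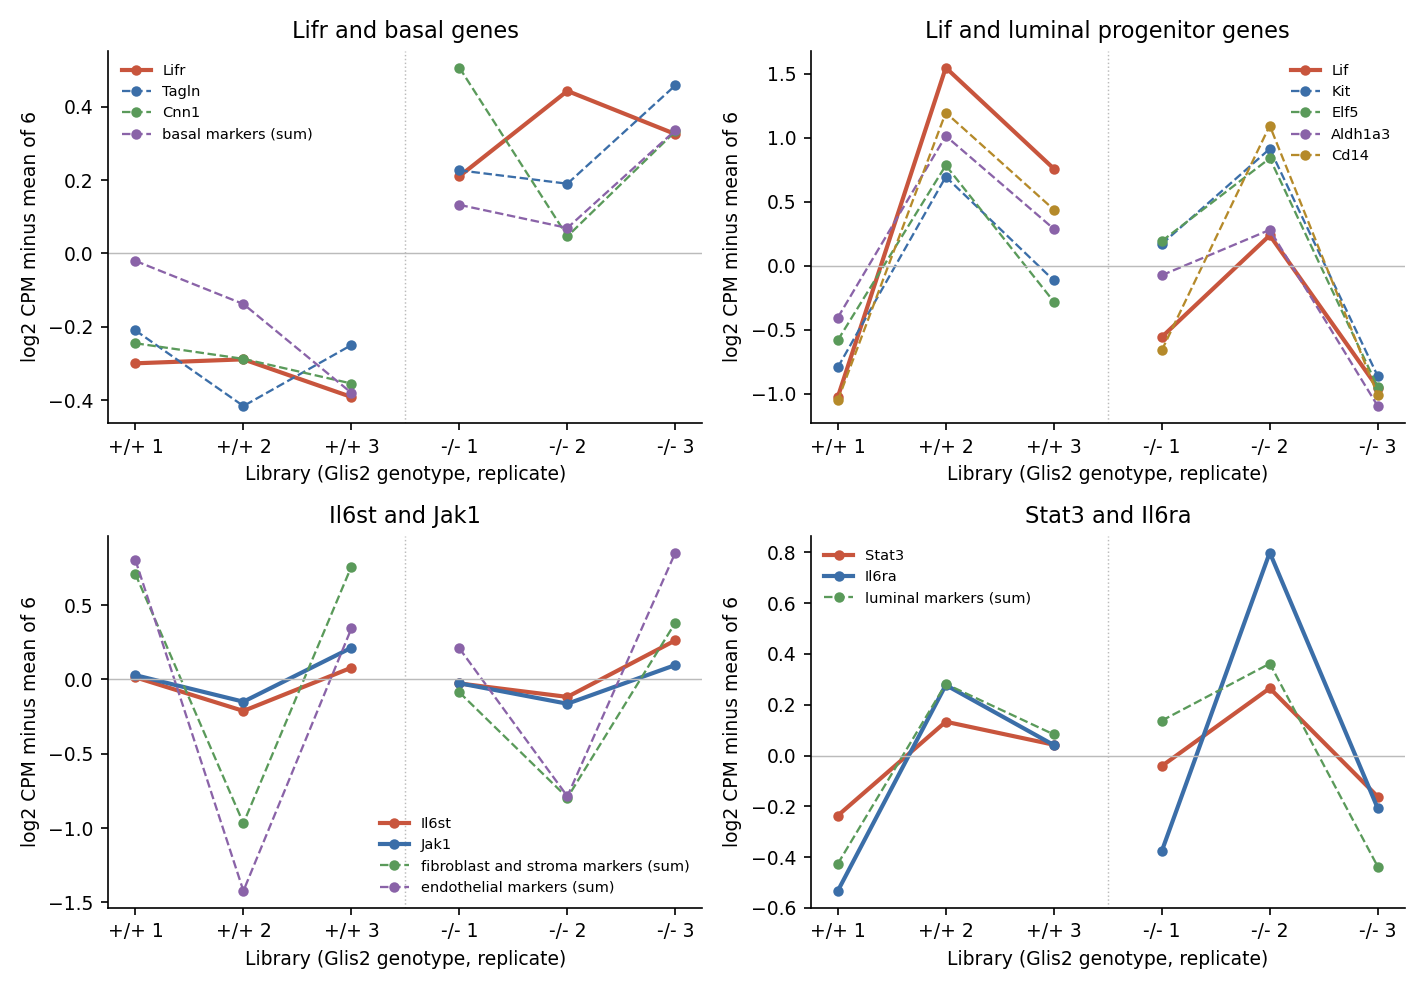
Each panel plots log2 CPM minus the mean of the 6 libraries (vertical axis) for the 3 WT and 3 KO libraries (horizontal axis), with list genes as solid lines and comparison genes or marker sums as dashed lines. Lifr, Tagln, Cnn1 and the basal sum sit below 0 in all WT and above 0 in all KO libraries, Lif peaks at 1.55 in WT replicate 2, as do Aldh1a3 and Cd14 but not Kit and Elf5, which are highest in KO replicate 2, Il6st and Jak1 dip in both replicates numbered 2, where stromal and endothelial sums are lowest, and Stat3 and Il6ra peak in KO replicate 2.

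The other ligands were low. Clcf1, whose product acts through LIFR and gp130, measured 6.38, 9.70 and 9.90 CPM in WT and 6.55, 8.78 and 10.3 CPM in KO, with a log2 fold change of -0.02 (SE 0.27, 95% interval -0.64 to 0.61). Osm was near 0 and did not pass the filter on low counts. It had 5, 0 and 2 counts in the WT libraries and 6, 3 and 0 in the KO libraries. A count of 0 allows up to 3 counts, or 0.105 CPM in WT replicate 2 and 0.0959 CPM in KO replicate 3, covering counting error only. OSM is known mainly as a product of leukocytes, and summed leukocyte markers were 27.9 to 52.6 CPM in WT and 47.3 to 91.6 CPM in KO. Lif and Osm are neighbours on the plus strand of chromosome 11, with Osm at chr11:4236420-4241026 and Lif at chr11:4257557-4272514, 16.5 kb apart. Their levels nonetheless differed widely in every library, with scaled TPM of 15.6 to 95.8 for Lif and 0 to 0.226 for Osm.

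Jak1, the kinase bound to gp130, measured 247, 219 and 281 CPM in WT and 238, 217 and 259 CPM in KO. Its log2 fold change was -0.07 (SE 0.12, 95% interval -0.34 to 0.21, adjusted p = 0.977 in the edgeR test). Stat3 measured 237, 306 and 287 CPM in WT and 271, 335 and 249 CPM in KO, with a log2 fold change of 0.04 (SE 0.14, 95% interval -0.28 to 0.37, adjusted p = 0.985 in the edgeR test). The direction of Stat3 flipped to -0.05 on the scaled TPM scale. Exons of Stat3 overlap those of Stat5a on the opposite strand, and those of Jak1 overlap Raver2. The library kit marks strand, but whether the quantification used strand is not given in the sources used here, so that shared reads cannot be told apart.

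Jak1, Stat3 and 2 of the receptor chains had their highest or lowest values in the replicates numbered 2, whose marker sums were also extreme. Il6st and Jak1 each had their lowest values in WT replicate 2 and KO replicate 2, the libraries with the lowest stromal and endothelial sums. Stat3 and Il6ra each had their highest values in these libraries, where luminal sums were highest at 6624 and 7003 CPM. In the other libraries the order was not always shared. For example, KO replicate 1 had a higher luminal sum than WT replicate 3 (5992 against 5771 CPM) but less Il6ra (8.27 against 11.1 CPM). An association of these genes with the marker sums was not tested. Across the 6 libraries the range was 1.39-fold for Il6st, 1.30-fold for Jak1 and 1.42-fold for Stat3, against 1.78-fold for Lifr and 2.52-fold for Il6ra.

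By scaled TPM, Stat3 was the most abundant of the 9 transcripts, with a median of 241 over 6 libraries. In TMM-normalized counts per kilobase it ranked 3, after Jak1 and Lifr. On the scaled TPM scale Lifr (105), Jak1 (104.7) and Il6st (89.8) followed Stat3, then Osmr (54.7), Lif (28.8), Clcf1 (7.24), Il6ra (3.40) and Osm (0.135). The ranges of Stat3 and Lifr did not overlap, nor did those of Il6st and Osmr, of Lif and Clcf1, or of Il6ra and Osm. Lifr and Jak1 could not be ordered, as Lifr was the higher in 2 of 6 libraries. Jak1 exceeded Il6st in 6 of 6 libraries, Osmr exceeded Lif in 5 of 6, and Clcf1 exceeded Il6ra in 6 of 6, although the ranges of each pair overlapped. Both receptor chains for LIF lay above the IL-6 binding chain in every library. The scaled TPM ratio of Il6ra to Il6st lay between 0.0251 and 0.0681. Jak1 over Il6st was 1.20 to 1.57 in WT and 1.04 to 1.20 in KO, with no overlap by a narrow margin.

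**Figure D4:**
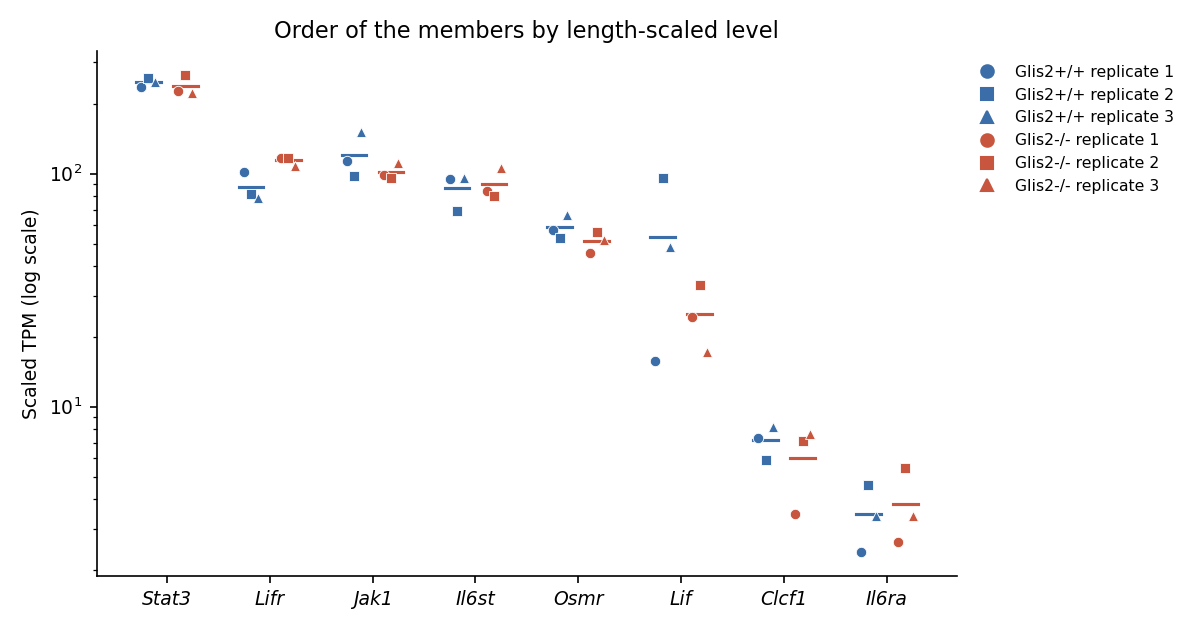
Scaled TPM (log axis) of 8 of the 9 genes, ordered by their median, with WT in blue, KO in red, the replicate given by the marker shape and a bar at the mean of 3. Osm, listed at 0 in 2 libraries, is not drawn. Stat3 lies above all others at 222 to 266, Lifr, Jak1 and Il6st share a range between 69.4 and 150.4, and Clcf1 and Il6ra lie below 10.

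Beyond the 9 genes, 70 further genes of the pathway were examined, of which 64 were tested and 53 had at least 10 CPM in the median library. Of these 53, 0 were called by edgeR or by DESeq2, and 7 had an unadjusted p under 0.05 in the edgeR test, against 620 of all 9892 genes at that level. The genotypes did not overlap for 8 of 53, 6 with KO above and 2 with KO below. This share of 15.1% compares with 12.6% of all genes at that level. The median log2 fold change of the 53 was 0.08, against 0.01 for all genes at that level.

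Socs3, the feedback inhibitor induced by STAT3, was among the 8. It measured 449, 387 and 429 CPM in WT and 471, 487 and 462 CPM in KO. The KO libraries lay above the WT libraries by a small margin, with a log2 fold change of 0.17 (SE 0.09, 95% interval -0.04 to 0.37, adjusted p = 0.920 in the edgeR test). Of the 14 inhibitors counted, Pias3 also lay higher in KO and Socs2 lower. Pias3, which binds activated STAT3, measured 16.4, 19.6 and 18.5 CPM in WT and 26.4, 25.9 and 22.2 CPM in KO, a log2 fold change of 0.45 (SE 0.16, adjusted p = 0.906 in edgeR). Socs2, better known for growth hormone signalling, measured 36.0, 32.4 and 36.6 CPM in WT and 22.8, 26.5 and 30.6 CPM in KO, a log2 fold change of -0.39 (SE 0.15, adjusted p = 0.906 in edgeR). The median over the 14 inhibitors was 0.08, and the share without overlap was 21.4%, against 12.6% of all genes at that level.

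Of the STAT3 target genes, a list that includes Socs3, Osmr and Stat3, 27 of 30 were counted, 0 were called, 4 lay higher and 1 lower in KO without overlap, and the median log2 fold change was 0.04. The share without overlap was 18.5%, against 12.6% of all genes at that level. Lrg1, a secreted glycoprotein of the acute phase, differed most among these 5, with 7.68, 8.54 and 11.6 CPM in WT and 16.9, 14.0 and 25.4 CPM in KO. Its log2 fold change was 1.02 (SE 0.27, 95% interval 0.39 to 1.64), but the adjusted p was 0.906 in edgeR. The library with most Lrg1, KO replicate 3, also had the highest endothelial and leukocyte sums (771 and 91.6 CPM). WT replicate 1 had the next highest sums (744 and 52.6 CPM) but the lowest Lrg1 value. The part of cell composition in the Lrg1 values was not tested. Lbp, another acute-phase gene, measured 8.98, 13.1 and 12.1 CPM in WT and 15.9, 15.6 and 18.2 CPM in KO (log2 fold change 0.54, SE 0.20). Ccnd1, encoding cyclin D1, had a log2 fold change of 0.14 (SE 0.09) and Hif1a, encoding the hypoxia factor, one of -0.16 (SE 0.09). Socs3 completes the 5.

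Other classical targets overlapped between the genotypes. Bcl3 had a log2 fold change of -0.03 (SE 0.19), Cebpd, a factor of involution, one of -0.37 (SE 0.17) and Junb, an immediate early gene that cell isolation also induces, one of 0.14 (SE 0.11). Both genotypes went through the same overnight digestion, and its part in the levels of Socs3, Junb and Lif was not tested.

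None of the 8 other JAK and STAT genes counted and none of the 5 adaptors separated by genotype, against 12.6% of all genes at that level. Their log2 fold changes ranged from -0.16 to 0.28 and from -0.00099 to 0.17. Il11ra1, the IL-11 binding chain, measured 31.0, 31.6 and 30.4 CPM in WT and 41.2, 35.4 and 35.1 CPM in KO (log2 fold change 0.26, SE 0.12), and is uncertain because the mouse genome holds near-identical copies of the gene, whose part in its reads was not tested. None of the 9 other ligands reached 10 CPM in the median library. Il6 measured 5.67, 2.03 and 9.33 CPM in WT and 1.12, 2.04 and 6.01 CPM in KO, with a log2 fold change of -0.89 (SE 0.69, 95% interval -2.47 to 0.70). Cntf, with 1 to 20 counts per library, was not tested. Ctf1, encoding cardiotrophin 1, another LIFR ligand, lay at 0.616, 2.63 and 1.38 CPM in WT and 3.60, 2.74 and 3.10 CPM in KO (log2 fold change 1.03, SE 0.54, adjusted p = 0.919 in edgeR).

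**Figure D5:**
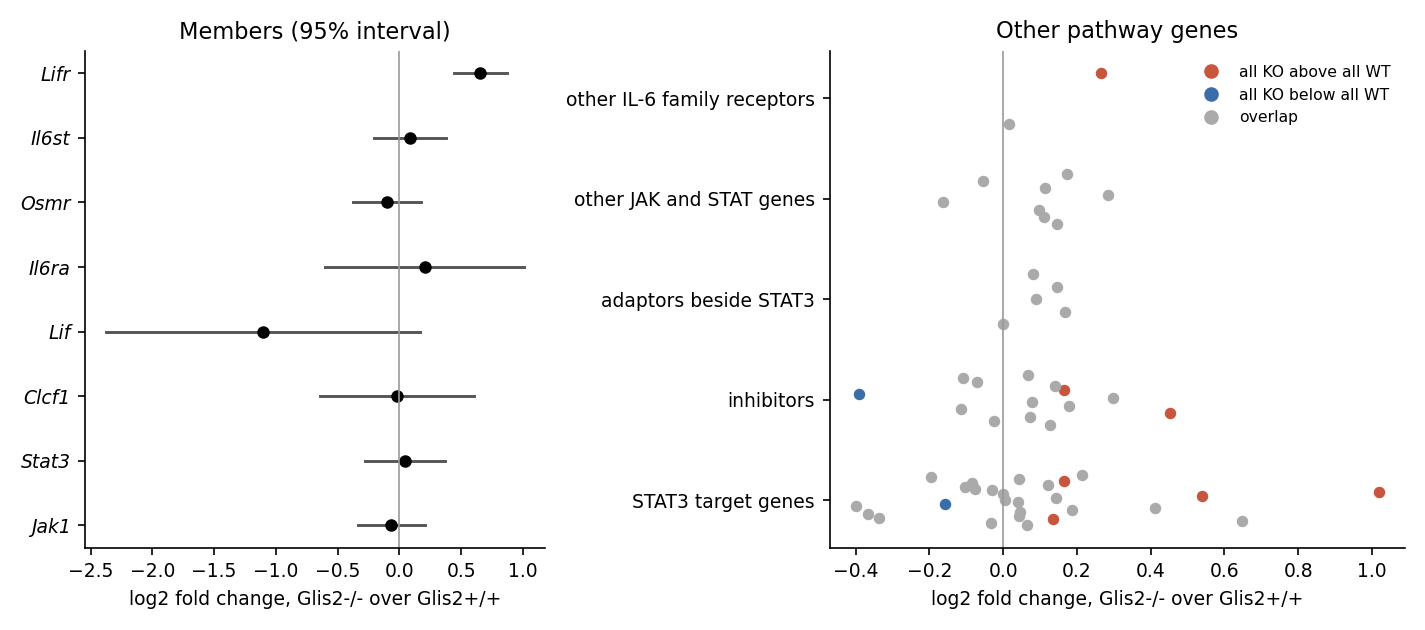
Log2 fold change of KO over WT. The left panel shows the tested genes of the list with the 95% interval of the edgeR estimate (for Lifr a description only), and the right panel shows 1 point per counted pathway gene, in red where all KO lie above all WT libraries, in blue where all lie below and in grey where they overlap. Lif has the widest interval, -2.37 to 0.16, and Lrg1 at 1.02 is the point farthest from 0 on the right.

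Genes whose library profile was most like that of Lifr were sought among 9461 protein-coding genes with a mean of at least 10 CPM, by Pearson's r of log2 CPM over the 6 libraries. The top 5 were Arpc1a (r = 0.994), Plscr3 (0.990), Csrp1 (0.990), Arhgef3 (0.978) and Coro1b (0.975). All 5 had KO libraries above WT libraries without overlap, and 106 genes reached r of 0.9, so the measure mainly picks genes that separate the genotypes. Csrp1, a LIM domain protein of smooth muscle, measured 426, 433 and 409 CPM in WT and 552, 578 and 585 CPM in KO. Arpc1a and Coro1b, both linked to branched actin, had smaller log2 fold changes of 0.20 (SE 0.10) and 0.18 (SE 0.09). The 6 other listed genes at that level had r from -0.40 for Lif to 0.30 for Il6ra, and Clcf1 and Osm were below it.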

How the data were processed

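RNA of sorted mammary epithelial cells from 3 Glis2+/+ and 3 Glis2-/- mice was analysed. The authors estimated counts with Salmon 1.2.1 on an mm10 transcriptome with the genome as decoy and assembled them with tximport. The deposited estimated counts are whole numbers without library scaling, and the deposited log2 values are of TPM with an offset of 1. Libraries were made from 1 ng of RNA, without molecular identifiers. Of 54418 identifiers, 54166 matched GENCODE M21 (GRCm38). Promoter windows are from RefSeq (GRCm38.p6).

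Counts were compared with edgeR 4.0.16 (R 4.3.3; filterByExpr, TMM, quasi-likelihood test, Benjamini-Hochberg adjustment over all genes tested), after testing on simulated data. The fold is KO over WT. Levels used TPM turned back from the log2 values and scaled without Gm23935. Total counts were 24996524 to 31393917. The common biological coefficient of variation was 37.4%, and no 2 libraries agreed within sampling noise. Alternatives were DESeq2 1.42.0 with apeglm 1.24.0, its size factors, other filters, no fold threshold, limma 3.58.1 on log2 TPM, a block for replicate number and fits without each mouse.

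The listed genes, pathway lists, markers and tests were chosen with earlier results of these data known. From each pathway list, genes with at least 10 CPM in the median library were counted, and those whose genotypes did not overlap were named, with Socs3, Bcl3, Cebpd, Junb, Il6, Cntf and Il11ra1, the 5 genes most like Lifr, and Glis2. Ctf1, neighbouring genes and the single lineage genes set against Lifr and Lif were named after their values were seen. One result is not reported here.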

Additional observations from a re-analysis of the deposited data

How the results depend on the processing

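The edgeR count of 0 genes became 45 with DESeq2 and apeglm, 40 with no filter on low counts, 1 with log2(TPM + 0.1) in limma and 1 with log2(scaled TPM + 1) in limma, a setting added after seeing the data. It was 0 in the other alternatives, and 0 to 0 with each mouse left out. Of the listed genes, 1 passed with DESeq2 and 1 with no filter, in both cases Lifr, whose values chose the list, so that these counts are no test of it. No other pathway gene was called under any of the 16 alternatives. The log2 fold change of Lifr moved to 0.27 with log2(TPM + 1), 0.29 with log2(TPM + 0.1) and 0.39 with log2(scaled TPM + 1), where the median of genes at 10 CPM or more was -0.13, -0.16 and -0.07. The direction of Lif and Osmr was the same in 14 alternatives, and with DESeq2 and apeglm both were shrunk to 0 (Lif -1.95e-06, Osmr -4.81e-06), as were the other tested genes of the list but Lifr. Il6st reversed to -0.037 with log2(TPM + 1) and -0.039 with log2(TPM + 0.1) (-0.053 to 0.15 with a mouse left out). Stat3 reversed to -0.15 with both, to -0.051 with scaled TPM and to -0.018 without both replicates numbered 2 (-0.10 to 0.12 with a mouse left out). Without both replicates numbered 2, Il6ra was -0.077 and Clcf1 0.050. With a mouse left out, Il6ra lay between -0.26 and 0.41, Clcf1 between -0.21 and 0.14, Jak1 between -0.15 and 0.031, Osmr between -0.22 and -0.04 and Lif between -1.56 and -0.46. In TPM as deposited, Lifr ranked 3 and Jak1 2. In counts per kilobase, Jak1 ranked 1, Stat3 3, Lif 5 and Osmr 6. The causes were not tested. The deviations of same-numbered mice correlated at -0.02, 0.17 and 0.02 for numbers 1, 2 and 3, so that the numbers were not taken as pairs although both replicates numbered 2 were alike in marker sums. The fit with the replicate block called 0 genes, with Lifr at 0.65 and Lif at -0.88. With 3 mice per genotype, the intervals of Lif, Il6ra and Clcf1 were the widest of the list.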

Other observations

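The implied length of Glis2 transcripts did not overlap between the genotypes. Relative to the mean of 6 libraries, the log2 length implied by count and TPM was 0.35, -0.02 and 0.84 in WT and -0.87, -0.15 and -0.15 in KO. All KO libraries lay below all WT libraries, by 0.78 between the means, and 99.6% of 11660 genes differed less. For Socs3 the same measure differed by 0.00.

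Bcl6, chosen after its values were seen and holding 4 TTCNNNGAA matches in its RefSeq windows, measured 19.6, 29.2 and 29.2 CPM in WT and 53.7, 41.9 and 26.6 CPM in KO, a log2 fold change of 0.65 (SE 0.26, edgeR adjusted p = 0.906), with overlapping genotypes.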
